A study of Danio rerio with 6 samples.

Results

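*ccdc80* encodes a secreted protein of the extracellular matrix, and its level was described in whole zebrafish larvae at 4 dpf (days post fertilization). It was selected on its difference between the 2 genotypes in these same data, so its levels are given as a description without a test. Among the 54869 Ensembl transcripts of the count table, 1 carries the name *ccdc80* in the authors' deposited tables of differential expression, ENSDART00000000005 of gene ENSDARG00000000002. RNA-seq compared 3 WT samples, labelled as wildtype AB, with 3 samples of *flt1ka601* (flt1-/-), for which the labels give no background strain. Both genotypes carried Tg(kdrl:eGFP)s843, a reporter that marks endothelial cells, and all 6 samples were taken at this age. The *flt1ka601* allele is a CRISPR/Cas frameshift in an early exon that removes both the membrane-bound and the soluble form of Flt1, a receptor that binds Vegfaa, in every cell of the animal. It is a single mutant line. The number of larvae pooled per sample is not given in the sources used here. Between 10655504 and 14936523 reads per sample were counted on transcripts. The level of *flt1* itself was not analysed here.

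Ccdc80 is known in mammals as a glycoprotein that is released from connective tissue, muscle and fat and that binds components of the matrix. In mouse it takes part in adipocyte differentiation and glucose balance, and in zebrafish larvae the gene is expressed in the notochord and in the somites, the source of the trunk muscle. The matrix around muscle fibres and vessels is built from collagens, glycoproteins and proteoglycans, and enzymes in the secretory pathway fold and modify the collagen chains before they are released.

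*ccdc80* was counted in every sample and was lower in the mutants. The WT samples held 137, 152 and 236 reads in replicates 1, 2 and 3. The *flt1ka601* samples held 50, 59 and 57 reads. Every mutant sample was below every WT sample, and the lowest WT count was more than double the highest mutant count.

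After scaling by TMM, which corrects each sample for library size and composition, the level is given as CPM, the counts scaled to a library of 1000000 reads. The WT samples were at 10.5, 13.3 and 22.3 CPM, with a mean of 15.4 ± 6.16 (SD, n = 3). The mutants were at 3.58, 5.31 and 4.96 CPM, with a mean of 4.62 ± 0.916 (SD, n = 3). WT replicate 3 stood highest and *flt1ka601* replicate 1 lowest, and the genotypes did not overlap. The exact 95% Poisson interval of a single sample, which covers counting error only, ran from 19.6 to 25.4 CPM in WT replicate 3 and from 2.66 to 4.72 CPM in *flt1ka601* replicate 1. The interval of the lowest WT sample (8.84 to 12.5 CPM) did not reach that of the highest mutant sample (4.04 to 6.85 CPM).

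**Figure D1:**
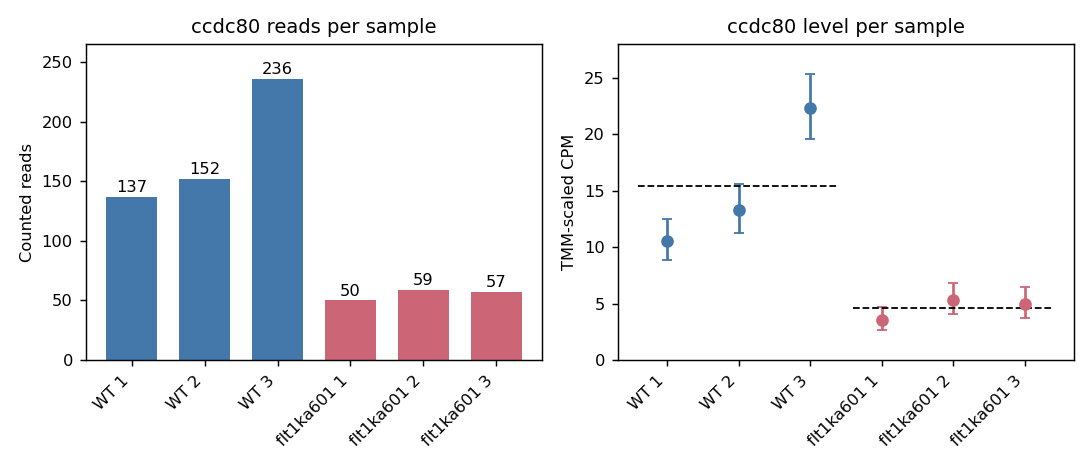
Reads counted on the *ccdc80* transcript per sample (left, bars) and its level in TMM-scaled CPM (right), for WT (blue) and *flt1ka601* (red) larvae. Error bars are exact 95% Poisson intervals for counting error and dashed lines are genotype means, 15.4 CPM in WT and 4.62 CPM in mutants. The 3 mutants lie between 3.58 and 5.31 CPM, all below the WT samples.

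The order of the levels was WT replicate 3, WT replicate 2, WT replicate 1, then *flt1ka601* replicates 2, 3 and 1. Counting intervals of WT replicates 1 and 2 overlapped (8.84 to 12.5 and 11.3 to 15.6 CPM), and so did those of the 3 mutants. WT replicate 3 lay above the interval of each other sample. In CPM scaled by the total of each library alone, the WT samples were at 9.17, 13.6 and 21.9 and the mutants at 3.74, 5.54 and 5.13, again without overlap. The scaling thus changed neither the order of the genotypes nor the place of WT replicate 3.

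The log2 fold change of *ccdc80*, *flt1ka601* over WT, was fitted as -1.74 ± 0.27 (SE, edgeR), which is a level 3.33-fold higher in WT. The smallest ratio between any WT and any mutant sample was 1.98 and the largest was 6.24. This is the contrast for which *ccdc80* was chosen, and the following counts give only its place in the table. Of the 21029 transcripts that passed the filter on low counts, 64 (0.304%) had a log2 fold change at or below that of *ccdc80*. Among the 14288 whose mean count reached 50 reads there were 16. An adjusted p under 0.05 (edgeR, adjusted by Benjamini-Hochberg) came with a lower level in mutants for 4.31% of tested transcripts and with a higher level for 5.44%, and the median log2 fold change of those called lower was -0.57. With at least a 2-fold change as well, the shares were 0.884% lower and 1.26% higher. In 15.8% of tested transcripts every mutant was below every WT sample and in 16.8% above, so that the lack of overlap alone was common. Leaving out 1 sample moved the number of transcripts called lower from 907 to between 295 (without *flt1ka601* replicate 2) and 1297 (without WT replicate 3). It was 465 without WT replicate 2, 351 without *flt1ka601* replicate 1 and 370 without *flt1ka601* replicate 3. Scaling by total counts called 1829 transcripts higher and 373 lower, where TMM called 1145 higher and 907 lower.

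In RNA from whole larvae, fewer cells that express *ccdc80* and less of its RNA per cell cannot be told apart. The mutants are a single line with no background strain given. An effect of *flt1* loss and a difference in background between the genotypes therefore cannot be told apart either. Reads that fit several overlapping transcripts are in no count, and they made up 20.0% to 23.1% of the reads placed at a single position. A further 43.5% to 46.8% of these lay on no annotated feature, and alignments that were not unique were left out as well. The *ccdc80* counts are therefore those of reads that fit the one transcript alone. Only transcripts that the authors listed as changed carry a name, so any other transcript of *ccdc80* would go unseen here. The values speak for this transcript and not for the whole gene.

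The level of *ccdc80* varied more within WT than that of most transcripts of like abundance. Over the 3 WT samples its chi-square per degree of freedom was 28.6, where 1 is the mean value that counting error alone gives. Among 6593 transcripts with a mean count between 57.6 and 230.3 reads, the median in WT was 1.61, and 99.2% lay below *ccdc80*. In the mutants *ccdc80* had a value of 2.38, beside a median of 1.05, and 77.4% lay below it. Its coefficient of variation was 40.0% in WT and 19.8% in mutants. The dispersion that edgeR estimated for *ccdc80* was 0.044, against 0.0129 on the trend over all transcripts at its abundance.

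WT replicate 3 carried most of this spread. There the log2 CPM of *ccdc80* was 0.90 above the mean of WT replicates 1 and 2, while the median of the 6593 transcripts of like count was -0.02, and 99.2% were below *ccdc80*. Without WT replicate 3 the log2 fold change between the genotypes was -1.38 ± 0.18 (SE). Without WT replicate 1, the lowest of the WT samples, it was -1.96 ± 0.24 (SE).

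**Figure D2:**
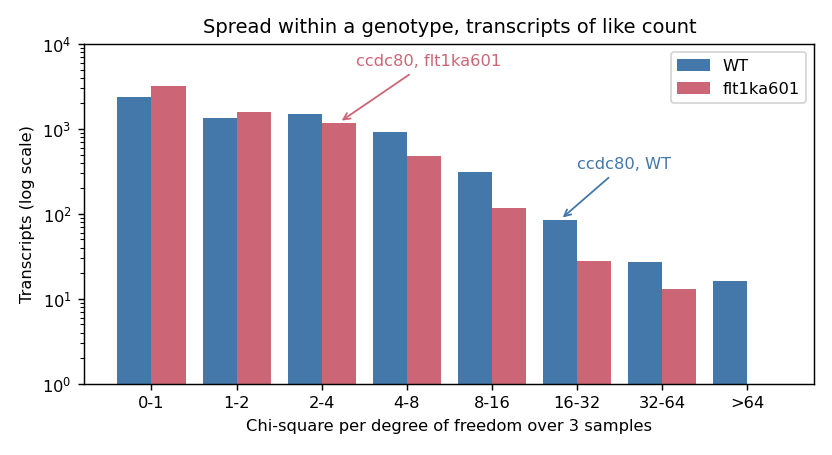
Number of transcripts (log scale) by their chi-square per degree of freedom over the 3 samples of a genotype, for 6593 transcripts with mean counts between 57.6 and 230.3 reads. Blue bars are WT and red bars *flt1ka601*, and arrows mark the bins that hold *ccdc80*, at 28.6 in WT and 2.38 in mutants.

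All 13 other fits kept *ccdc80* lower in mutants. This lends no support, since the gene was chosen for this difference and its genotypes do not overlap, so that leaving out a sample could not reverse it. Its log2 fold change ran from -1.75 to -1.62 over 7 changes of scaling, filter, tool or model, and from -1.96 to -1.38 when each of the 6 samples was left out in turn.

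**Figure D3:**
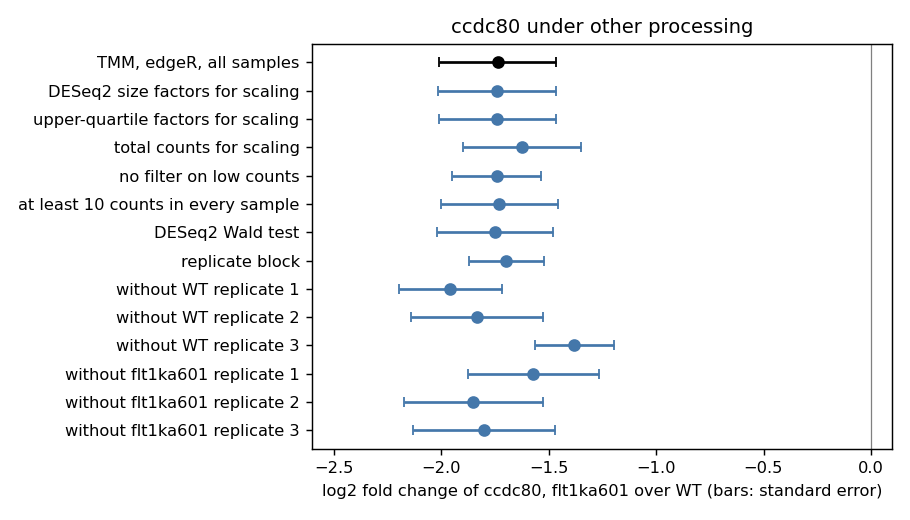
Log2 fold change of *ccdc80*, *flt1ka601* over WT, with its standard error (bars), for the fit used in the text (black) and 13 alternatives (blue). The values lie between -1.96 without WT replicate 1 and -1.38 without WT replicate 3.

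A second quantification by the authors, Cuffdiff's FPKM (sequenced fragments scaled by transcript length and library size), gives 1 value per genotype. The authors' value for *ccdc80* is 2.74 FPKM in WT and 0.819 FPKM in *flt1ka601*, with no spread over samples. On this scale per length, *ccdc80* ranked 57 from the top of the 158 transcripts of that table in WT and 110 in mutants. That table holds only transcripts past the authors' thresholds for a change, so the ranks give a place among changed transcripts alone. The median FPKM of the table was 1.82 in WT and 1.56 in mutants. *ccdc80* lay above this median in WT and below it in mutants. *ccdc80* is not among the 359 rows of the authors' DESeq table used here. Computed from the counts with the same kind of size factor, its normalized count was 182 ± 73.9 in WT and 54.3 ± 10.9 in mutants (SD, n = 3 each).

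By the order of protein-coding genes in RefSeq (assembly GRCz12tu), *ccdc80* lies between *dipk2b* and *slc35a5*. The next genes on the side of *dipk2b* are *kdm6a* and *fundc1*, and on the side of *slc35a5* they are *f5*, which encodes a coagulation factor, and *gpr161b*. None of these 6 neighbours is named under its RefSeq symbol in the deposited tables of differential expression, and their counts were not analysed here. A neighbour that those tables list under another name would be missed. *flt1* lies on another chromosome than *ccdc80*. The paralogs *ccdc80l1* and *ccdc80l2* and the related matrix genes *srpx* and *srpx2* carry no name in those tables either and were not analysed here.

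Other matrix genes were looked up by name to set *ccdc80* beside its kind. The tables name 424 transcripts, each listed as changed by at least 1 of the authors' methods, Cuffdiff or DESeq, and 93 of them are in both tables. Both methods had to call a gene for the study to define it as differentially expressed, and *ccdc80* is in the Cuffdiff table only. Of the matrix transcripts named here, ECM1 (2 of 2) is in both tables. Of the named transcripts, 386 other than *ccdc80* were tested. Of these, 347 (89.9%) had an adjusted p under 0.05, against 9.76% of all tested transcripts, so that a call among named transcripts carries little information about a list. Besides *ccdc80*, 7 named transcripts belonged to the matrix lists, and 0 of them to the collagens. Of the 6 that passed the filter, 3 rose and 3 fell in mutants, with edgeR adjusted p-values from 4.90e-05 (*plod3*) to 0.0399 (*emilin1a*) over all tested transcripts. The median log2 fold change of all tested transcripts was -0.0051.

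Like *ccdc80*, 2 members of the collagen-processing machinery were lower in mutants. A transcript of *serpinh1b*, the collagen chaperone Hsp47 of the endoplasmic reticulum, had 77, 60 and 69 reads in WT and 31, 23 and 14 in mutants. The log2 fold change, -1.67 ± 0.23 (SE), lay beside the -1.74 of *ccdc80*, and its genotypes did not overlap either. In 15.8% of all tested transcripts every mutant was below every WT sample. Unlike in *ccdc80*, WT replicate 3 of *serpinh1b* did not stand apart, with 5.92, 5.26 and 6.53 CPM in the WT samples. A transcript of *plod3*, which hydroxylates and glycosylates lysines of collagen, had 75, 64 and 48 reads in WT and 0, 0 and 1 in mutants. Over all samples of a genotype this is a ratio of 195 for WT over mutants, with a 95% counting interval (exact binomial) from 34.6 to 7759. Other transcripts of either gene carry no name in the files, so these values speak for a transcript and not for the gene.

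The integrin subunit *ITGAL*, which pairs with a beta chain on leukocytes and binds adhesion molecules of other cells more than matrix, was the third tested member to fall with *ccdc80*. It had 168, 205 and 81 reads in WT and 57, 55 and 39 in mutants (log2 fold change -1.64 ± 0.28, SE). Its WT replicate 3 was the lowest of the WT samples, where that of *ccdc80* was the highest. ECM1 (2 of 2), named for extracellular matrix protein 1, did not pass the filter on low counts. It had 15, 9 and 3 reads in WT and 0 in each mutant, which is at least 9.40-fold lower in mutants when a floor of 3 counts over the group is taken.

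The 3 matrix transcripts that rose moved against *ccdc80* between the genotypes. *TNXB*, a tenascin of connective tissue, had 181, 295 and 296 reads in WT and 752, 481 and 533 in mutants (log2 fold change 1.09 ± 0.20, SE). Within WT, *TNXB* was highest in replicate 3, as *ccdc80* was, with 13.9, 25.8 and 28 CPM in replicates 1, 2 and 3. *hapln3*, a link protein that ties proteoglycans to hyaluronan, had 37, 30 and 16 reads in WT and 87, 52 and 64 in mutants (log2 fold change 1.22 ± 0.24, SE). Its level was lowest in WT replicate 3, the sample in which *ccdc80* was highest. *emilin1a*, a glycoprotein of elastic fibres, had 33, 20 and 13 reads in WT and 64, 46 and 34 in mutants (log2 fold change 1.06 ± 0.28, SE). The level of *emilin1a* too was lowest in WT replicate 3 (1.23 CPM). In all 3 transcripts the mutants lay above WT without overlap, as they did in 16.8% of all tested transcripts.

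Of these 6 calls, 2 changed when single samples were left out. The call of *emilin1a* was lost in 5 of the 6 fits that left out a sample. Its edgeR adjusted p was then 0.113 without WT replicate 2, 0.0549 without WT replicate 3, and 0.148, 0.126 and 0.0524 without *flt1ka601* replicates 1, 2 and 3. With DESeq2 it was 0.0525. The call of *hapln3* was lost without *flt1ka601* replicate 1 (edgeR adjusted p = 0.0558, log2 fold change 1.12). The calls of *TNXB*, *serpinh1b*, *plod3* and *ITGAL* were kept in all 6 such fits.

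**Figure D4:**
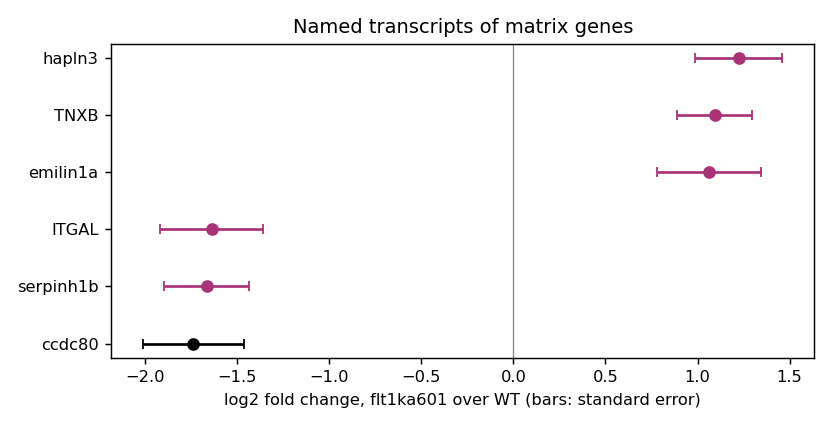
Log2 fold change, *flt1ka601* over WT, of *ccdc80* (black) and of 5 other named members of the matrix lists (purple), with standard errors (bars). The lists include matrix receptors, here *ITGAL*. *ccdc80*, at -1.74, lies with *serpinh1b* and *ITGAL* below 0, and *emilin1a*, *TNXB* and *hapln3* lie above. *plod3*, whose mutants are at or near 0 reads, is not plotted.

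To see which named transcripts had levels most like those of *ccdc80* over the samples, log2 CPM was correlated over the 6 samples for 199 named transcripts whose mean count reached 50 reads. The correlation is given as a description: the genotype difference fixes most of it, and all points share their libraries. The 5 with the highest Pearson's r were CABZ01061524.1 (0.982), C21H5orf24 (2 of 2) (0.978), *ampd1* (0.978), CU571255.1 (0.974) and *actc1b* (0.973). Such values were not rare, since 176 of the 14287 other transcripts of that abundance reached the last of these. *ampd1* encodes the AMP deaminase of skeletal muscle and *actc1b* an alpha-actin of muscle.

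*ampd1* was at 392, 386 and 516 CPM in WT replicates 1, 2 and 3 and at 200.3, 212 and 209 CPM in mutants. *actc1b* was at 14280, 14470 and 18290 CPM in WT and 5638, 6362 and 7307 CPM in mutants. As for *ccdc80*, WT replicate 3 was the highest sample and all mutants were below all WT samples. The latter held in 15.8% of all tested transcripts. The difference of *ccdc80* was larger, with a log2 fold change of -1.74 beside -1.06 ± 0.11 (SE) for *ampd1* and -1.28 ± 0.14 (SE) for *actc1b*. That gap between genes was not tested.

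The places of the 5 transcripts changed with WT replicate 3. The deviations of the 5 transcripts from their genotype means had correlations of 0.83 to 0.898 with those of *ccdc80* over the 6 samples, and of 0.337 to 0.719 over the 5 samples other than WT replicate 3, highest for *ampd1*. When WT replicate 3 was left out, an alternative chosen after the data were seen, 0 of the 5 remained among the most like, although their r with *ccdc80* was still 0.954 to 0.974. The transcripts that took their place were RNH1 (4 of 23), *c3c*, CR388002.2, CRISP3 and *clul1*, named after their values were seen. By Spearman's rank correlation 2 of the 5 were kept, *ampd1* and *actc1b*, but the fifth place, at 0.943, was tied. CABZ01061524.1 ranked the 6 samples in the same order as *actc1b* and so reached the same value. Which of them were kept thus rests on how ties were ordered.

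**Figure D5:**
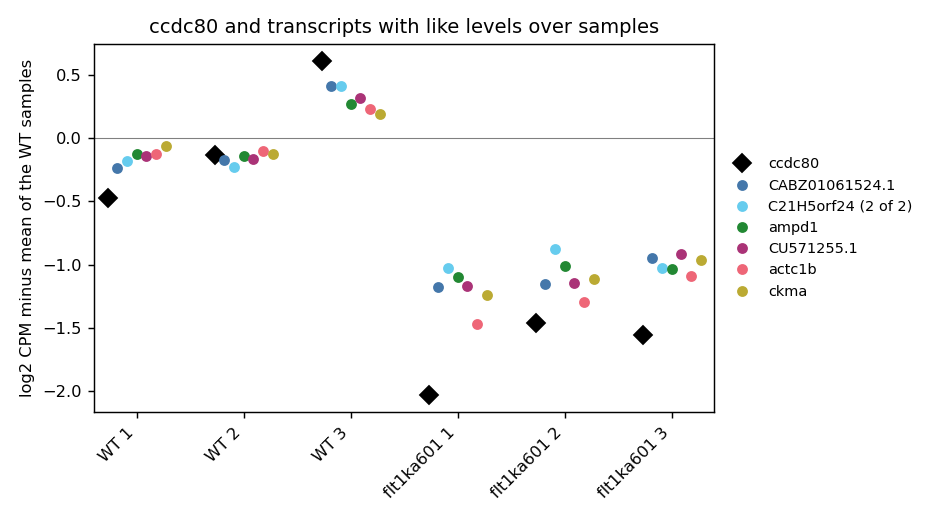
Log2 CPM minus the mean of the WT samples, per sample, for *ccdc80* (black diamonds), the 5 named transcripts most like it and the muscle creatine kinase *ckma*. All are highest in WT replicate 3 and lower in every mutant than in every WT sample, and *ccdc80* has the widest range. *ckma* is 1 of 3 named muscle transcripts. Of the others, not plotted, *myha* is highest in WT replicate 2 and *neb* is higher in mutants.

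Of the cell-type markers that carry a name, 2 of skeletal muscle were lower in mutants, as *ccdc80* was, and 1 was higher. Over all tested transcripts, 4.31% were called lower and 5.44% higher. Of 21 listed symbols or families of skeletal muscle, 3 are named in the tables. *ckma*, the muscle creatine kinase, was at 4073, 3890 and 4862 CPM in WT and 1805, 1962 and 2187 CPM in mutants (log2 fold change -1.11 ± 0.12, SE). *myha*, a myosin heavy chain, was at 36.5, 63.1 and 56.9 CPM in WT and 29.0, 21.1 and 19.6 CPM in mutants (log2 fold change -1.16 ± 0.20, SE). Both fell (edgeR adjusted p = 0.000566 and 0.00634), and in *ckma* as in *ccdc80* the highest sample was WT replicate 3. These transcripts carry a name only because the authors listed them as changed. Of the named transcripts tested besides *ccdc80*, 89.9% were called, against 9.76% of all tested transcripts. The calls therefore carry little information about muscle.

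A transcript of *neb*, the giant thin-filament protein nebulin, moved against *ccdc80* and rose from 7, 6 and 8 reads to 31, 14 and 22 (log2 fold change 1.58 ± 0.34, SE). Its edgeR adjusted p was 0.0173, and it was 0.0558 without WT replicate 1, 0.0674 without WT replicate 2, 0.0854 without *flt1ka601* replicate 1 and 0.0642 without *flt1ka601* replicate 3. The summed level of the 3 muscle transcripts was 3953 to 4919 CPM in WT and 1836 to 2209 CPM in mutants, nearly all of it *ckma*, and none of the 3 was at 0. Their part in the difference of *ccdc80* was not tested. The lists of cartilage, notochord, fin fold mesenchyme and fibroblasts, and adipocytes each had 0 named transcripts. Of 4 named endothelial transcripts, *angpt2a*, *esm1* and LYVE1 (2 of 2) rose, against the direction of *ccdc80*. Over all tested transcripts 5.44% were called higher, but of the named ones tested besides *ccdc80* 89.9% were called in either direction. These calls therefore carry little information about endothelium. *aplnra*, at 5 to 27 reads per sample, was not called (log2 fold change 1.32, edgeR adjusted p = 0.0809). The authors' Cuffdiff lists it as changed, and the paper reports it as raised by RNA-seq and qPCR. The paper also reports *angpt2a*, *esm1* and *lyve1* as raised in these mutants, so the direction of this list was known beforehand. General endothelial markers of the list, such as *kdrl* and *cdh5*, carry no name.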

How the data were processed

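RNA of whole zebrafish larvae, depleted of ribosomal RNA, was sequenced for 3 WT and 3 *flt1ka601* samples, grouped by the labels. The series design calls them biological replicates. Per the labels, reads were aligned with TopHat2 2.0.10 and Bowtie2 2.1.0 and counted with HTSeq 0.6.1. The submitters' processing notes name the builds Zv9 and danRer7, and the paper's methods name GRCz10, so no coordinates are given. The authors deposited counts per Ensembl transcript without normalization, 1 column per sample. The authors' deposited Cuffdiff table (Cufflinks 2.1.1) gives FPKM per genotype, and their deposited DESeq table gives signal per genotype, counts divided by size factors. Each holds only transcripts past the authors' thresholds for that method and served for names and values per genotype. Their fold changes, p-values and q-values were not used. Genotype means recomputed for 359 transcripts of the DESeq table differed from the deposited ones by at most 1.09e-07%, a check of the columns.

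The count model was fitted with edgeR 4.0.16 under R 4.3.3: filterByExpr (a minimum count of 10, 15 in total), TMM, the quasi-likelihood test on genotype with all 6 samples and Benjamini-Hochberg adjustment over 21029 transcripts. The SE of an edgeR log2 fold change was derived from that test, as its absolute value divided by the square root of the F statistic. For the DESeq2 fit the SE is the one DESeq2 reports. The code was tested on simulated data. CPM correlations used log2 values with a prior count of 2. Depth was 10655504 to 14936523 reads per sample, which for *ccdc80* gave 50 to 236 reads. The alternatives scaled by total counts, by upper quartiles or by the size factors of DESeq2, dropped the filter or asked for 10 counts in each sample, and further used DESeq2 1.42.0, the replicate number as a block, a 2-fold threshold, and each sample left out. Named are *ccdc80*, every matrix list member with an adjusted p under 0.05, and the 5 named transcripts most like *ccdc80* and 3 least like it with a mean of at least 50 reads. Matrix lists held collagens, glycoproteins, proteoglycans, matrix enzymes with their inhibitors, matrix receptors and relatives of *ccdc80*. Marker lists held skeletal muscle, cartilage, notochord, fin fold mesenchyme with fibroblasts, endothelium and adipocytes. The gene, the lists and the tests were chosen with earlier results of these data known. Names were matched in the deposited tables. No sequence of *ccdc80* was used here.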

Additional observations from a re-analysis of the deposited data

How the results depend on the processing

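The log2 fold change of *ccdc80* kept its direction in all 13 alternatives, which its selection and the lack of overlap between genotypes had largely fixed. Scaling by total counts moved the transcripts called higher from 1145 to 1829 and those called lower from 907 to 373, and asking for a 2-fold change gave 264 and 186. With 1 sample left out, 422 to 1492 transcripts were called higher and 295 to 1297 lower. Of the 5 transcripts most like *ccdc80*, 2 remained with Spearman's correlation, where ties at the last place made the choice arbitrary, and 0 without WT replicate 3. All 5 remained with scaling by total counts or DESeq2 size factors and with a prior count of 0.5. The number of other matrix transcripts called was 4 to 7 over all alternatives. The replicate numbers were not taken as pairs, since same-numbered samples deviated together with correlations of only 0.0796, 0.0215 and 0.0642, although each sample correlated best with its own number, a hint from the data and not from the design. With the replicate number as a block, the log2 fold change of *ccdc80* was -1.70 ± 0.17 (SE), where the SE without a block was 0.27. With this block 1270 transcripts were called higher and 1082 lower, and 6 other matrix transcripts were called. Names limit the matrix and marker lists to transcripts that the authors listed as changed by at least 1 method. The 50 to 59 reads in the mutants limit the precision of *ccdc80* there, and DESeq2 gave no adjusted p for *neb*.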

Other observations

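The named transcripts whose levels ran most against those of *ccdc80* over the 6 samples, with a mean of at least 50 reads, were wu:fe11b02 (ENSDART00000145370), *cyp2x7*, a cytochrome P450, and HIST1H4A (3 of 3), a histone H4, with Pearson's r of -0.99, -0.988 and -0.987. wu:fe11b02 was at 39.4, 30.7 and 20.8 CPM in WT replicates 1, 2 and 3 and at 78.5, 61.3 and 54.6 CPM in *flt1ka601*. HIST1H4A (3 of 3) was at 56.2, 46.4 and 34.2 CPM in WT and at 103, 99.8 and 96.0 CPM in *flt1ka601*. In both, WT replicate 3 was the lowest sample and *flt1ka601* replicate 1 the highest, the reverse of *ccdc80*. *cyp2x7* had the same samples at its ends, with 6.53 CPM in WT replicate 3 and 19.2 CPM in *flt1ka601* replicate 1. These correlations are a description: the genotype difference fixes most of them, and all points share their libraries. Of the 199 named transcripts compared, 57 had an r under -0.9 and 22 an r over 0.9, so strongly negative values were common. Among the matrix genes, *hapln3* had an r of -0.993 with *ccdc80* at a mean below 50 reads.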
